A study of Mus musculus with 8 samples.

Results

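The cells described here are cortical thymic epithelial cells (cTEC) of 1-week-old mice whose droplets also held RNA of thymocytes. They were chosen by their RNA counts in the 1-week libraries. A droplet counted as a deep cTEC where it held more than 12000 unique molecular identifiers (UMIs, one per captured RNA molecule), at least 3 UMIs of Psmb11, and Psmb11 plus Prss16 at 0.1% of its UMIs or more. Among these, a cell with at least 3 of the 9 thymocyte genes Cd3e, Cd3g, Trbc1, Trbc2, Cd8a, Cd8b1, Cd4, Rag1 and Lck was a member, and a cell with none of the 9 served for comparison. In all, 260 cells were members, 157 in replicate 1 and 103 in replicate 2, out of 735 deep cTEC and 9953 cells of the whole series. The comparison cells numbered 67, of which 36 came from replicate 1 and 31 from replicate 2.

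The study counted RNA and 27 surface tags in single thymic stromal cells of C57BL/6 mice at 1 week and 16 weeks of age by CITE-seq, in which antibodies carry DNA tags that are read with the RNA of the cell. Thymi of wild-type mice were digested with enzymes, depleted of CD45-positive cells on a magnetic column and sorted as CD45-negative, Ter119-negative cells, with EpCAM1-positive and EpCAM1-negative cells mixed. Per the study's methods the thymi of an age were pooled and loaded on 2 wells, which are the 2 replicates here. Both wells therefore stand for 1 pool of mice, no test between groups was made, and the spread between wells is technical.

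Cortical TEC attract T cell precursors, deliver Notch ligand and show self peptides on MHC molecules to CD4 and CD8 double-positive thymocytes, and Psmb11 (the thymoproteasome subunit β5t) and Prss16 (a serine protease) prepare those peptides. Some of them, known as thymic nurse cells, enclose whole thymocytes. Double-positive thymocytes carry both co-receptors, rearrange their T cell receptor α locus with the Rag recombinase, and mostly die unless their receptor is selected on these cells.

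The surface proteins were read by tags of 15 bases. Shown here are the 5 tags with the largest differences on the higher side and 3 that were lower, whose values follow below. They are printed in lower case throughout since every base identifies the tag.
CD31: gctgtagtatcatgt
CD40: atttgtatgctggag
CD83: tctcaggcttcctag
CD274: tcgattccaccaact
CD270: gatccgtgttgccta
CD9: tagcagtcactccta
Podoplanin: gggcgatttagtgtg
Epcam: acccgcgttagtatg

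The 4 RNA libraries held 1430 to 4738 cells with a median of 6668.5 to 8690.5 UMIs per cell. The 2 1-week libraries held 1846 and 1430 cells and 31917364 and 25654110 UMIs. Of the members, 1 shared its barcode with a cell of the other 1-week library and 5 with a cell of a 16-week library. The median doublet score was 0.0559 in the members and 0.0455 in the comparison cells, and 1.92% of the former and 1.49% of the latter were among the 253 cells with the highest scores of their libraries. The score is built from pairs of cells within a library, and no droplet of these 1-week libraries held at least 3 of the 9 genes without Psmb11, Prss16 or Epcam. Outside the cTEC rule, 34 droplets of these libraries held at least 6 of the 9 genes, and 25 of them had at most 1 Epcam UMI.

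Psmb11 and Prss16, which the rule required, were counted in every class. The median member held 44 Psmb11 UMIs and 172 Prss16 UMIs, against 18 and 78 in the comparison cells. Members were also deeper, with a median of 44720 UMIs in replicate 1 and 44804 in replicate 2 against 28731 and 36028. The median number of genes detected was 7163 and 7321 against 6038 and 6313. Their median tag count was 8994 and 11252 against 5499.5 and 6080. The median share of mitochondrial UMIs was 1.75% and 1.74% against 1.47% and 1.50%. Depth and mitochondrial share thus moved with membership, and shares at one fixed depth are given below.

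The number of thymocyte genes per cell had 2 peaks. Of the deep cTEC, 67 held none of the 9 genes, 191 held 1, 217 held 2, 109 held 3 and 31 held 4. The count then fell to 11 cells with 5 genes, 10 with 6 and 13 with 7, and rose again to 25 cells with 8 and 61 cells with all 9. Both wells had this shape, with 37 cells holding all 9 genes in replicate 1 and 24 in replicate 2. Cells just inside the limit, with 3 genes, held a median of 4 UMIs of the 9 genes, and cells just outside it, with 2 genes, held 3 UMIs. Cells with all 9 genes held a median of 137 UMIs, which was 0.355% of their RNA, with a highest count of 654 UMIs and a highest share of 1.67%.

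**Figure D1:**
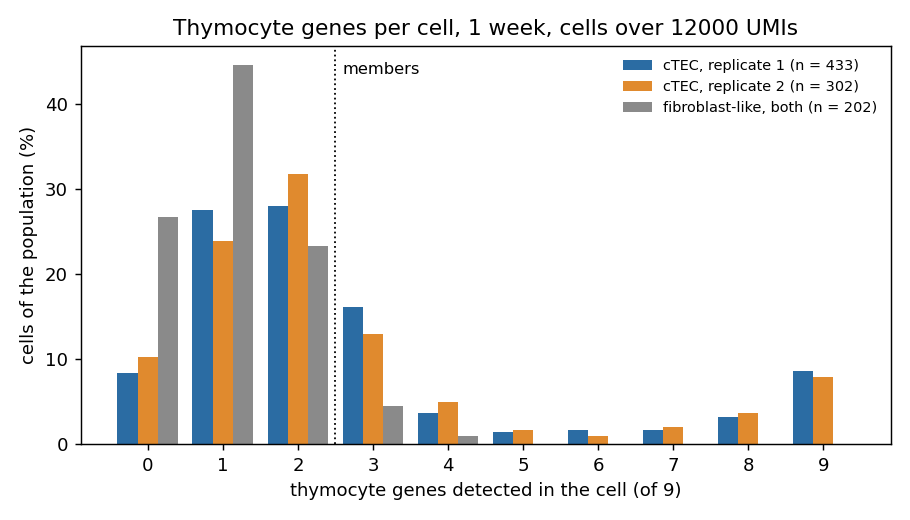
The plot of thymocyte genes per cell gives the share of cells (y axis, percent) by how many of the 9 genes were detected (x axis) for deep cTEC of replicate 1 (blue, 433 cells) and replicate 2 (orange, 302 cells) and for fibroblast-like cells of both (grey, 202 cells). In both wells the cTEC bars are lowest at 5 to 7 genes and rise to 9 genes, and no fibroblast-like cell lies above 4 genes.

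The lower peak overlapped with cells that should not express T cell genes. Fibroblast-like cells, which held at least 3 of the fibroblast genes Pdgfra, Col1a1, Col1a2, Col3a1, Dcn and Lum at 1% of UMIs or more and fewer than 3 Psmb11 UMIs, numbered 202 over the same depth limit, with a median of 27095 UMIs. At least 3 of the 9 genes were found in 11 of these, or 5.45% (exact 95% binomial interval 2.75 to 9.53), against 35.4% (31.9 to 39.0) of deep cTEC, whose median was 38405 UMIs. At least 5 genes were found in 0 of 202 fibroblast-like cells, which allows a share of up to 1.49% at 3 counts of the total (exact upper bound 1.81%), and in 120 of 735 deep cTEC or 16.3% (13.7 to 19.2). After every cell was thinned to 12000 UMIs, 17.7% of cTEC (15 to 20.6) and 1.98% of fibroblast-like cells (0.542 to 4.99) held at least 3 genes. At this depth 11.6% of cTEC (9.34 to 14.1) still held at least 5. These intervals cover counting error only. The member limit of 3 genes was also met by 4 of 36 endothelial-like cells, or 11.1% (3.11 to 26.1), and by 3 of 24 Epcam-positive cells without Psmb11, or 12.5% (2.66 to 32.4). The interval of the latter overlapped with that of cTEC before and after thinning, when its share was 8.33% (1.03 to 27). Of the endothelial-like cells 0 of 36 met the limit after thinning (exact upper bound 9.74%). Endothelial-like cells held at least 5 genes in 0 of 36 cells, which allows up to 8.33% at 3 counts (exact upper bound 9.74%). Epcam-positive cells without Psmb11 held them in 0 of 24, which allows up to 12.5% at 3 counts (exact upper bound 14.2%).

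The share of members among cTEC was larger in deeper cells. It was 22.5% (15.6 to 30.7) of cells between 12000 and 20000 UMIs, 25.2% (17.8 to 33.8) between 20000 and 30000, 34.1% (27.8 to 40.9) between 30000 and 45000 and 47.2% (41.1 to 53.4) above 45000. In fibroblast-like cells of the first 3 ranges it was 2.44%, 5.81% and 5.97%. Between 20000 and 45000 UMIs, where both populations had at least 67 cells per range, the cTEC interval lay above the fibroblast-like value in each range. Above 45000 UMIs only 8 fibroblast-like cells were left, of which 1 held at least 3 genes.

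The members are described in 2 parts, split after the shape of the count was seen, with 140 cells of 3 or 4 genes (86 and 54 per well) and 120 cells of 5 or more (71 and 49). The first part held a median of 4 UMIs of the 9 genes in each well, and these genes made up 0.0114% and 0.0108% of its RNA. The second part held a median of 69 and 75 UMIs, and the share was 0.231% and 0.268% of its RNA. Median depth was 41856 and 50634.5 UMIs in the first part and 54681 and 44181 in the second, so their order differed between the wells.

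**Figure D2:**
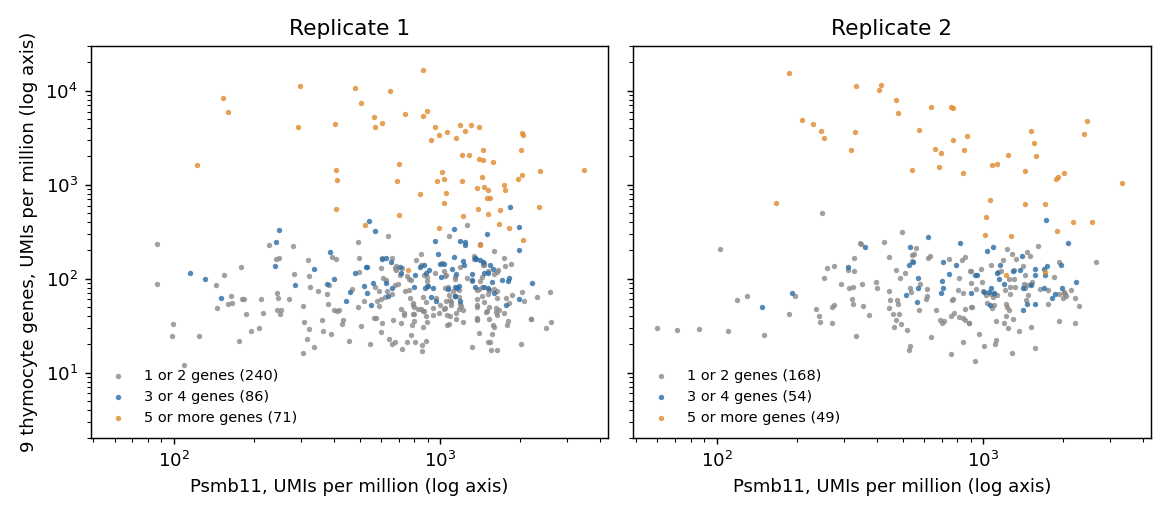
The plot of single cells gives the level of the 9 thymocyte genes (y axis, CPM, log axis) against that of Psmb11 (x axis, CPM, log axis) for deep cTEC of each replicate with 1 or 2 genes (grey), 3 or 4 genes (blue) and 5 or more genes (orange). Each point is a cell, cells with none of the 9 genes cannot be drawn on the log axis, and the orange cells reach far above the rest in both wells.

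The 9 genes that chose the members were spread unevenly over the cells, and their values are a description of the choice. Trbc2 and Trbc1, the constant regions of the T cell receptor β chain, were detected in 94.2% and 86.9% of members. In the 140 members of 3 or 4 genes they were found in 125 and 116 cells, while Cd4 was found in 8, Cd3e in 16 and Rag1 in 24. In the 120 members of 5 or more genes, Trbc2 was found in every cell, Cd8a and Cd8b1, the chains of the CD8 co-receptor, in 107 each, Lck, the kinase that co-receptors bring to the receptor, in 110, Rag1 in 103 and Cd4 in 83. Trbc1 and Trbc2 were also the most widely found of the 9 in fibroblast-like cells, at 32.2% and 37.1% of cells, against 1.49% to 10.4% for the other 7.

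The co-receptor genes belong to the rule, so their joint detection in members of 5 or more genes describes the choice. Cd4 and Cd8a were both detected in 78 of the 120 cells, and 73 of these also held Rag1. Cd8a without Cd4 was seen in 29 cells, Cd4 without Cd8a in 5 and neither in 8. A missing UMI in a single droplet does not show that the RNA was absent.

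Beyond the 9 genes, the RNA of members and comparison cells was summed per class and well and set against each other as a log2 ratio of CPM (UMIs of a gene per 1000000 UMIs of the class), with 0.5 UMI added, over genes with at least 20 UMIs in the 2 classes together in each well. Of 11682 genes, 293 or 2.51% were higher by 2-fold in both wells and 73 or 0.625% were lower. After every cell was thinned to 12000 UMIs, 151 of 8175 genes were higher and 35 lower. Without the filter on low counts the balance turned, with 540 higher and 801 lower. Since members were selected on RNA of the same cells, these counts are a description, and a T cell gene with few UMIs passed the filter only through the members. In the members of 5 or more genes 388 of 10245 genes (3.79%) were higher and 143 (1.40%) lower, and in the members of 3 or 4 genes 47 of 10302 (0.456%) were higher and 25 (0.243%) lower.

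**Figure D3:**
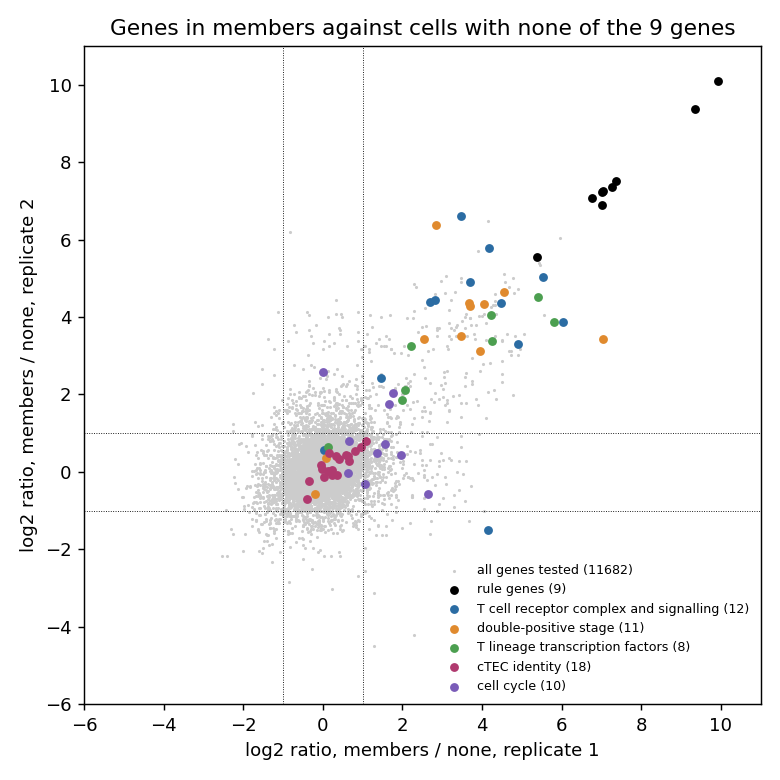
The plot of gene ratios gives the log2 ratio of members to comparison cells in replicate 1 (x axis) and replicate 2 (y axis) for 11682 genes (grey), with the 9 genes of the rule (black) and 5 gene lists in colour. Dotted lines mark a 2-fold difference, most genes of the T cell lists lie in the upper right, and none of the 18 cTEC genes lies past both lines of one direction.

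Genes of the T cell receptor complex and its signalling that the rule did not use were the first group. Of 12 such genes all passed the filter, 10 were higher in both wells and none was lower, with a median log2 ratio of 4.21 against 0.02 over all genes tested, and of 3.87 with the gene at 0 in the comparison cells set to its bound. Cd3d, the CD3 δ chain, stood at 85.1 and 87.9 CPM in the members of the 2 wells and at 12.6 and 3.71 in the comparison cells, a ratio of 10.7 over both wells (exact 95% counting interval 6.64 to 18.4). Trac, the constant region of the receptor α chain, stood at 44.5 and 41.9 against 2.91 and 0.928, a ratio of 22.9 (8.88 to 84.3). Both wells of members lay above both wells of comparison cells for these genes.

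Lat, the adaptor that Zap70 phosphorylates, stood at 67.9 and 75.8 CPM against 0.971 and 1.86, a ratio of 49.9 (17.0 to 243). Zap70 itself stood at 6.65 and 7.39 against 1.94 and 0.928, a ratio of 4.88 (1.61 to 24.1). Lcp2, the adaptor SLP-76, had 123 UMIs in the members and 0 in the comparison cells, at least 7.15-fold higher against a floor of 3 counts over the comparison group. The exceptions were Fyn and Cd28. Fyn, a kinase of many cell types, stood at 12.3 and 11.5 against 11.7 and 7.42. Cd28, the co-stimulatory receptor, stood at 25.9 and 19.9 in the members, and at 0.971 and 55.7 in the comparison cells, where 57 of the 60 UMIs of replicate 2 came from 1 cell.

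Genes high at the double-positive stage formed the second group. Of 12 genes 11 passed the filter and 9 were higher, with a median log2 ratio of 3.99, and of 3.52 with the genes at 0 in the comparison cells set to their bound. Dntt, the terminal transferase that adds bases at receptor joints, stood at 43.8 and 45.4 CPM against 2.91 and 1.86, a ratio of 18.7 (7.97 to 57.9). Rag2, the partner of Rag1, had 63 UMIs in the members and 0 in the comparison cells, at least 3.66-fold higher.

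Ccr9, the receptor for the cTEC chemokine Ccl25, stood at 56.1 and 47.6 CPM against 3.89 and 1.86, a ratio of 18.5 (8.46 to 50.6). Themis, which tunes receptor signals during selection, stood at 24 and 27.9 against 0.971 and 0.928, a ratio of 26.9 (7.39 to 223). Cd1d1 and Tcf12 did not differ by 2-fold in both wells, at 13.0 and 12.1 against 14.6 and 17.6 for Cd1d1 and 121 and 137 against 115 and 107 for Tcf12. Slamf1 did not pass the filter.

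The third group, 8 transcription factors of the T lineage, had 7 genes higher and none lower, with a median log2 ratio of 3.27. Tcf7, the gene of TCF-1, stood at 137 and 156 CPM against 1.94 and 10.2, a ratio of 23.4 (13.7 to 44.1). Satb1, a chromatin organiser of thymocytes, stood at 144 and 137 against 2.91 and 5.57, a ratio of 33.1 (17.4 to 72.4). Bcl11b, required for T lineage commitment, stood at 63.8 and 68.8 against 2.91 and 3.71, a ratio of 19.8 (9.57 to 49.4). Tox, at 43.7 and 48.0 against 39.8 and 30.6, did not differ by 2-fold in both wells.

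Lists of earlier and later thymocyte stages came next. Of 7 genes of the double-negative stage 6 passed the filter, 2 were higher and the median log2 ratio was 0.68. The higher ones were Ptcra, the pre-T cell receptor α chain, with 71 UMIs in the members and 1 in the comparison cells, a ratio of 12.4 (2.15 to 496), and the Notch regulator Dtx1 with 101 against 3, a ratio of 5.87 (1.95 to 28.9). Il2ra was at 11.2 and 5.54 CPM against 4.86 and 3.71.

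Of 12 genes of selected and mature thymocytes 7 passed the filter and 3 were higher, with a median log2 ratio of 1.00. This median was -0.21 in cells of 12000 to 30000 UMIs, 0.21 without cycling cells, and 0.43 and 1.57 without replicate 1 and without replicate 2. Only 48 and 26 members and 17 and 15 comparison cells per well were left without cycling cells. Cd5, whose level follows receptor signal strength, had 92 UMIs in the members and 0 in the comparison cells, at least 5.35-fold higher. Cd6, a related receptor, had 131 against 1, a ratio of 22.8 (4.03 to 909), and Gimap6 195 against 1, a ratio of 34.0 (6.03 to 1350). Cd69, an early sign of receptor signalling, had 29 UMIs in all members and 0 in the comparison cells, and Ccr7, which guides selected thymocytes to the medulla, had 16 UMIs against 4. Both missed the filter. Cd69 was detected in 15 and Ccr7 in 6 of the 120 members of 5 or more genes, against 95 for Dntt. Ccr7 was detected in 5.0% of those members, 5.97% of the comparison cells and 2.48% of fibroblast-like cells.

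Per 100 UMIs of the 9 genes, members of 5 or more genes held 3.71 UMIs of Dntt, 5.44 of Rag1, 0.199 of Cd69 and 0.0568 of Ccr7. A set of 25 droplets outside the cTEC rule, with at least 6 of the 9 genes and at most 1 Epcam UMI, held 3.22 of Dntt and 8.12 of Rag1 on 1244 UMIs of the 9 genes. No UMI of Cd69 or Ccr7 was counted in the set. The members' values rest on 14091 UMIs of the 9 genes, and on 1244 UMIs a count of 0 cannot be told apart from values that low. These droplets had a median of 4981 UMIs, all 25 held Psmb11 or Prss16 UMIs, and the 9 genes made up 0.153% to 1.78% of their RNA, against 0.0108% to 1.67% in the members of 5 or more genes.

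Most of the tested genes shared by leukocytes were also higher. Of 10 such genes 9 passed the filter, 6 were higher and none lower, with a median log2 ratio of 2.51. Arhgdib, Lcp1 and Ptpn6 did not differ by 2-fold in both wells. In the members of 3 or 4 genes 6 passed the filter and 0 were higher. Ptprc, the gene of CD45 against which the cells had been depleted, had 509 UMIs in the members and 2 in the comparison cells, a ratio of 44.4 (12.2 to 367). It was detected in 98 of the 120 members of 5 or more genes (81.7%), in 3 of the 140 members of 3 or 4 genes (2.14%) and in 2.97% of fibroblast-like cells. At 12000 UMIs per cell these shares were 53.3%, 0.714% and 1.49%. Coro1a, an actin regulator of leukocytes, stood at 121 and 107 CPM against 22.3 and 8.35, a ratio of 7.58 (5.35 to 11.1).

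The 3 T cell groups differed between the parts of the members. Summed over the list, the T cell receptor complex genes stood at 698 and 814 CPM in the members of 5 or more genes, at 34.3 and 34.1 in those of 3 or 4, at 37.6 and 30.5 in cells of 1 or 2 genes and at 35.0 and 73.3 in the comparison cells. Without Cd28, taken out after 1 comparison cell of replicate 2 was seen to hold most of its UMIs, the list stood at 647 and 772, 33.2 and 32.6, 33.0 and 27.2, and 34.0 and 17.6 in the same order. The double-positive list stood at 768 and 792, 134 and 160, 127 and 149, and 152 and 139 in the same order. The transcription factors stood at 986 and 1108, 88.1 and 101, 92.3 and 98.7, and 75.8 and 80.7. On these lists the members of 3 or 4 genes lay within 2-fold of cells of 1 or 2 genes in each well, and the 120 cells of 5 or more genes carried the higher values. In members of 3 or 4 genes 3 of the 12 receptor genes passed the filter and 1 was higher, Thy1, a surface glycoprotein of thymocytes, at 7.96 and 10.0 CPM against 1.94 and 0 in the comparison cells. In cells of 1 or 2 genes Thy1 stood at 7.59 and 5.82.

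**Figure D4:**
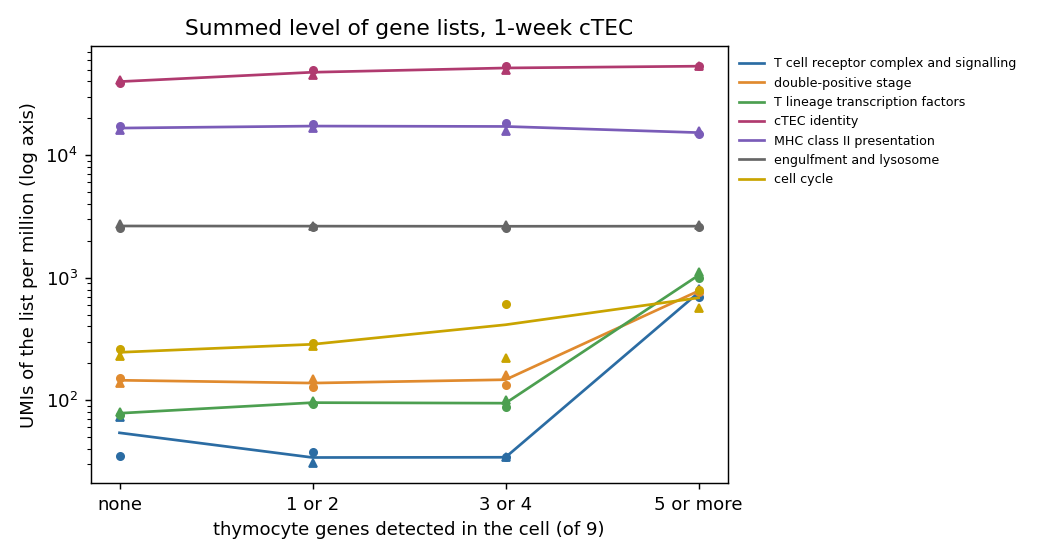
The plot of list levels gives the summed CPM of 7 gene lists (y axis, log axis) by the number of the 9 genes detected (x axis), with circles for replicate 1, triangles for replicate 2 and lines through their mean. The 3 T cell lists lie between 698 and 1108 in cells of 5 or more genes and at 160 or lower in the other classes, while the cTEC, MHC class II and engulfment lists stay within 2-fold of the comparison cells.

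Outside all lists, the 10 genes with the highest ratio were C230085N15Rik, Sla, Dgkeos, Prrt1, Abi3, Sash3, Prkcb, Sh2d2a, Il16 and Gm15340, and each had 0 UMIs in the comparison cells. C230085N15Rik had 367 UMIs in the members, at least 21.3-fold higher, and Sla, an adaptor that lowers T cell receptor levels in thymocytes, had 246, at least 14.3-fold higher. Prkcb, a protein kinase C of lymphocytes, had 152 UMIs, at least 8.83-fold higher, and Sash3, a lymphocyte adaptor, 151, at least 8.78-fold higher. Dgkeos is by its name an antisense gene of Dgke.

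Markers of other cell types were measured in the same way. Of 9 macrophage genes 2 passed the filter and none differed by 2-fold in both wells, and Adgre1, C1qa, C1qb and C1qc were detected in 5, 3, 10 and 6 of the 260 members. Of 6 dendritic cell genes 1 passed the filter and Itgax and Siglech had 0 UMIs. Among the 5 B cell genes only Cd79b passed, with 51 UMIs against 0, at least 2.96-fold higher, while Ms4a1 had 0. Among the 5 natural killer genes only Gzma passed, with 81 UMIs against 1, a ratio of 14.1 (2.46 to 565), while Nkg7, Ncr1 and Klrb1c had 0. Of 6 γδ T cell genes only Trdc passed, with 124 UMIs against 2, a ratio of 10.8 (2.93 to 90.3), while Tcrg-C4 and Cd163l1 had 0. Of the fibroblast list 6 genes passed the filter, of the erythroid list 3 and of the granulocyte list 2, and none of these differed by 2-fold in both wells. Summed, the fibroblast list stood at 519 and 686 CPM in the members against 287 and 867. The part of RNA of these cell types in the results was not tested.

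Variable segments of the receptor genes were rarely detected by these libraries, which read the 3′ end of the RNA. At least one of the 35 annotated Trbv genes was detected in 29 of the 120 members of 5 or more genes, with 24 cells holding 1 such gene, 4 holding 2 and 1 holding 3 or more. Of the 128 Trav genes 1 was seen in 32 of these cells and 2 in 4 cells. Of the comparison cells 0 of 67 held either kind, which allows a share of up to 4.48% at 3 counts, and in cells of 1 or 2 genes each kind was seen in 4 of 408 cells. Across the members of 5 or more genes 13 different Trbv and 22 different Trav genes occurred.

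Most members with enough Trbc UMIs held both β chain constant regions. Of the 95 members with at least 20 Trbc UMIs, both Trbc1 and Trbc2 were detected in 88, and one of them made up more than 90% of the Trbc UMIs in 21 cells. The median share of the more frequent one was 66.9%. In the 11 Epcam-poor droplets with 20 or more Trbc UMIs both were detected in 9, one exceeded 90% in 2 and the median was 69.6%. Trbc1 and Trbc2 were also detected in 43.1% and 69.9% of cells of 1 or 2 genes and in 32.2% and 37.1% of fibroblast-like cells. They are near-identical copies, and how far their reads could be told apart is uncertain.

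Genes of the cTEC list were counted in members and comparison cells, both of which the rule had chosen on Psmb11 and Prss16. All 18 genes of the cTEC list passed the filter and none differed by 2-fold in both wells, with a median log2 ratio of 0.23. Ccl25, which draws Ccr9-bearing precursors, stood at 6716 and 5889 CPM against 3462 and 3766, and Tbata at 9125 and 8396 against 4309 and 4800. Dll4, the Notch ligand of cTEC, stood at 121 and 150 against 77.7 and 112, and Foxn1, the master regulator of TEC, at 235 and 225 against 202 and 235. Psmb11, which was part of the rule for both classes, stood at 1129 and 1156 against 751 and 860. Epcam was lower, at 285 and 297 against 378 and 485.

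Summed, the cTEC list stood at 53613 and 53010 CPM in the members of 5 or more genes and at 38999 and 40789 in the comparison cells, and it was already 50044 and 45084 in cells of 1 or 2 genes. Between 12000 and 30000 UMIs, where 38 and 22 members and 19 and 14 comparison cells per well remained, the median log2 ratio of the list was -0.03 instead of 0.23. The 7 genes of MHC class II presentation did not differ by 2-fold in both wells, with a median log2 ratio of -0.01.

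Lower genes were looked at next. Of 10 mTEC genes 8 passed the filter and 1 was lower, Krt5, a keratin of medullary and subcapsular TEC, at 90.1 and 34.3 CPM against 233 and 106, a ratio of 0.402 (0.355 to 0.457). The 10 genes with the lowest ratio outside the lists were Epha5, Fbln7, Ly6h, Scn3b, Gfra4, Ntrk2, 1700023F06Rik, Aqp3, Tmsb15b1 and Kirrel. Ly6h stood at 27.9 and 17.9 against 113 and 73.3, a ratio of 0.258 (0.214 to 0.310). Gfra4, a receptor of the GDNF family, stood at 15.8 and 19.3 against 47.6 and 79.8, a ratio of 0.269 (0.215 to 0.336). Aqp3, a water and glycerol channel, stood at 2.49 and 2.87 against 6.80 and 11.1, a ratio of 0.294 (0.161 to 0.548).

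Genes of uptake and contact were mostly level. Of 16 genes of engulfment and lysosomes 12 passed the filter and 1 was higher, Elmo1, a guide of Rac during engulfment that lymphocytes also express, at 7.90 and 6.77 CPM against 2.91 and 0.928, a ratio of 3.92 (1.48 to 14.7). The median log2 ratio of this list was -0.04, and its sum stood at 2573 and 2692 against 2555 and 2733. Of 8 adhesion and Notch ligand genes none differed by 2-fold in both wells, with a median log2 ratio of -0.14. Of 10 immediate early and heat shock genes none differed by 2-fold in both wells. Nr4a1, an early gene of tissue dissociation and of receptor signals, stood at 42.7 and 64.9 against 111 and 121, a ratio of 0.446 (0.384 to 0.519), and was past 2-fold in replicate 1. In the members of 5 or more genes, at 42.3 and 35.9, Nr4a1 was lower by 2-fold in both wells.

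Proliferation genes were uneven between the wells. Of 10 cell cycle genes 2 were higher in both, with a median log2 ratio of 1.09, which was 0.61 without replicate 1 and 1.46 without replicate 2. In the members of 5 or more genes 5 of the 10 were higher in both wells. Top2a, the topoisomerase of dividing cells, stood at 125 and 73.5 CPM against 38.9 and 21.3, a ratio of 3.49 (2.71 to 4.57), and Ube2c at 111 and 62.4 against 32.1 and 14.8. Cenpf, at 129 and 29.6 against 20.4 and 43.6, went opposite ways in the wells. In the members of 3 or 4 genes the list stood at 607 in replicate 1 and 219 in replicate 2, and in those of 5 or more at 800 and 570, against 263 and 229 in the comparison cells. Whether this RNA was that of the epithelial cell or of the thymocyte was not tested.

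The surface tags gave a readout that the choice of the members had not used. Tag counts were scaled to the cell's total, taken as log2(x + 1) and averaged per class and well. Of 27 tags 12 (44.4%) were higher on the members in both wells and 11 (40.7%) lower by sign alone. The tag of Ly6D had 2 counts in all 1-week cells and gave no value, while the RNA of Ly6d, found on thymocytes and mTEC, stood at 54.9 and 49.9 CPM in the members against 12.6 and 10.2.

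CD31 (PECAM-1), an adhesion molecule of endothelium that leukocytes and thymocytes also bear, had the largest difference of the 27. Its level was 2.31 and 2.14 on the members and 0.92 and 0.97 on the comparison cells, a difference of 1.27 ± 0.15 (SD, n = 2 wells). It was highest in the members of 5 or more genes, with 1.28 and 1.45 in cells of 1 or 2 genes, 1.65 and 1.35 in members of 3 or 4 and 3.10 and 3.00 in members of 5 or more. The median raw count was 1 on comparison cells of both wells and 14 and 20 on members of 5 or more genes. Endothelial-like cells of the same wells stood at 10.15 and 10.16, and fibroblast-like cells, whose median raw count was 0, at 1.79 and 1.90.

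Endothelial RNA was measured beside this. Of 6 endothelial genes 2 passed the filter, and Pecam1, the gene of CD31, was the one that was higher, with 169 UMIs in the members against 8, a ratio of 3.68 (1.83 to 8.67). The summed list stood at 45.5 and 23.8 CPM in the members against 14.6 and 15.8 in the comparison cells, and at 58.0 and 23.9 in the members of 5 or more genes, and the difference was larger in replicate 1 than in replicate 2. In cells of 1 or 2 genes it stood at 22.4 and 41.2, which in replicate 2 was above the members. Cdh5, which marks endothelium, was detected in 17 of the 120 members of 5 or more genes and in 21 of the 140 of 3 or 4, against 1 of the 67 comparison cells and 14 of the 202 fibroblast-like cells. Cdh5, which missed the filter, had 79 UMIs in the members and 1 in the comparison cells, a ratio of 13.8 (2.40 to 551). In cells of 1 or 2 genes Cdh5 stood at 4.65 and 8.33 CPM, against 8.45 and 3.70 in the members, so the wells ran opposite ways between these classes. Pecam1 was detected in 60 of the 120 members of 5 or more genes (50%), in 11.9% of the comparison cells and 14.4% of fibroblast-like cells, and at 12000 UMIs per cell in 19.2%, 2.99% and 6.93%. The Epcam-poor droplets had a CD31 level of 5.83 and 6.63, with 7 and 1 Pecam1 UMIs and 2 and 5 UMIs of the other endothelial genes. The part of endothelial RNA in the CD31 difference was not tested.

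Another 4 tags were higher by more than 0.6 on the log2 scale in both wells. CD40, which receives signals from CD40 ligand on T cells, stood at 5.78 and 5.76 on the members and 4.84 and 4.99 on the comparison cells, a difference of 0.85 ± 0.12 (SD, n = 2 wells). CD83, a surface protein of cTEC that keeps MHC class II on the surface, stood at 2.26 and 2.32 against 1.19 and 1.48, a difference of 0.95 ± 0.16. CD274, the inhibitory ligand PD-L1, stood at 5.48 and 5.43 against 4.60 and 4.46, a difference of 0.92 ± 0.07. CD270 (HVEM), a receptor of the TNF family, stood at 7.73 and 7.67 against 7.04 and 7.0, a difference of 0.68 ± 0.01. For each, both wells of members lay above both wells of comparison cells. The paper describes CD83, CD40 and HVEM as highest on perinatal cTEC, a cTEC type common early in life. It reports that CD73, CD49a and Sca1, which were lower on members, rise as cTEC mature. Whether members and comparison cells differed in cTEC state was not tested.

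These 4 differences were graded by the number of thymocyte genes. For CD40 the mean difference from the comparison cells was 0.33 in cells of 1 or 2 genes, 0.56 in members of 3 or 4 and 1.19 in members of 5 or more. For CD83 it was 0.38, 0.71 and 1.24, for CD274 0.37, 0.62 and 1.28, and for CD270 0.29, 0.47 and 0.93. In the members of 3 or 4 genes these tags were higher in both wells. In cells of 12000 to 30000 UMIs the differences between members and comparison cells were 0.93 for CD40, 0.94 for CD83, 0.69 for CD274, 0.49 for CD270 and 1.56 for CD31. The RNA of 3 of these proteins differed by less than 2-fold, with Cd83 at 539 and 550 CPM against 308 and 379, Cd274 at 463 and 540 against 365 and 390, and Cd40 at 53.8 and 49.7 against 31.1 and 45.5.

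**Figure D5:**
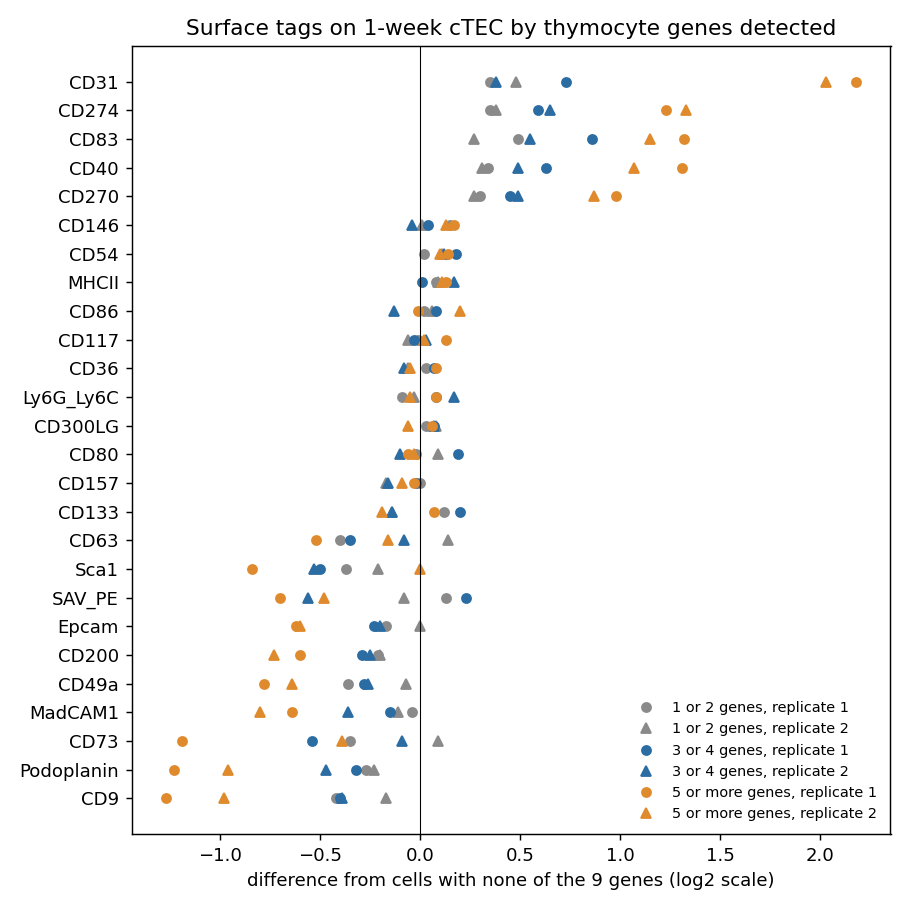
The plot of surface tags gives, for 26 tags, the difference in level from cells with none of the 9 genes (x axis, log2 scale) in cells of 1 or 2 genes (grey), 3 or 4 genes (blue) and 5 or more genes (orange), with circles for replicate 1 and triangles for replicate 2. CD31, CD274, CD83, CD40 and CD270 lie to the right and CD9 and Podoplanin to the left, farthest in cells of 5 or more genes.

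On the lower side, CD9, a tetraspanin, stood at 3.56 and 3.51 on the members and 4.35 and 4.18 on the comparison cells, a difference of -0.73 ± 0.08 (SD, n = 2 wells). Podoplanin, a mucin-like protein of TEC and fibroblasts, stood at 6.01 and 6.06 against 6.74 and 6.76, a difference of -0.72 ± 0.02. The Epcam tag stood at 7.15 and 6.96 against 7.56 and 7.35, a difference of -0.40 ± 0.01. RNA of the same genes was lower as well, with Pdpn at 22.2 and 22.8 CPM against 43.7 and 47.3, and Cd9 at 165 and 154 against 250 and 228. The tag levels are relative to the cell's tag total, whose median was larger in members. The median raw count was 222 and 255 against 177 and 192 for Epcam. It was 107 and 131 against 87.5 and 128 for Podoplanin, and 19 and 24 against 19.5 and 18 for CD9. CD73, CD63 and Sca1 were lower in both wells but with a spread between wells of 0.43, 0.21 and 0.26 around means of -0.53, -0.27 and -0.47. CD49a, CD200 and MadCAM1 were lower by -0.48 ± 0.05, -0.45 ± 0.03 and -0.47 ± 0.14. MHCII, which took the most counts, differed by 0.10 ± 0.06.

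With every cell's tags instead centred on the mean of its log counts, CD31, CD40, CD83, CD274 and CD270 stayed higher in both wells, by 1.33 and 1.10 for CD31 and 0.91 and 0.96 for CD270, and CD9, Podoplanin and Epcam stayed lower, by -0.18 and -0.10 for Epcam. By this scaling 7 tags were higher and 17 lower in both wells, and the 17 include Ly6D, which had no counts on these cells.

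At 16 weeks the same rule found few cells. Of 34 and 83 deep cTEC in the 2 wells, 6 and 16 were members and 6 and 24 held none of the 9 genes. The share of members was 18.8% (12.2 to 27.1) over both wells, with a median depth of 26201 UMIs, and 12% (6.70 to 19.3) after thinning, against 17.7% (15 to 20.6) at 1 week. The intervals after thinning overlapped. At least 5 genes were found in 14 of the 117 cells, of which 6 held 8 and 4 held all 9.

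The 16-week members also held T cell RNA. Cd3d stood at 95.2 and 85.5 CPM against 8.31 and 1.52, Dntt had 52 and 69 UMIs in the members against 0, at 177 and 120 CPM, and Ptprc stood at 57.8 and 43.6 against 0 and 1.52. The cTEC list stood at 45733 and 55178 against 37016 and 47442. The CD31 tag, at 1.08 and 1.47 on the members and 0.95 and 1.14 on the comparison cells, differed by less than at 1 week, with 6 and 16 member cells behind these values. CD40 stood at 3.36 and 4.05 against 3.10 and 3.35, and Podoplanin at 4.85 and 3.77 against 6.40 and 5.28. Cells of 1 or 2 genes stood at 4.12 and 4.07 for CD40, above the members in both wells, and at 1.48 and 1.11 for CD31. The order of the classes seen for CD40 at 1 week was thus not seen at 16 weeks. The ages were loaded as separate pools, so age and pool cannot be told apart.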

How the data were processed

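Stroma of thymi aged 1 week or 16 weeks was measured in 4 RNA and 4 tag libraries, 2 wells per age. Per the labels, the authors aligned reads to mm10 with STARsolo 2.7.9a; the methods name Ensembl models and a minimum of 2000 UMIs, and the lowest deposited cell held 2000. The authors deposited whole-number counts of UMIs per gene and cell and of tags per cell, not normalised. The labels name version 2 of the 3′ kit and the methods version 3, which was not settled. The methods give the tool's defaults for other settings, by which reads fitting several genes are left out, so near-identical genes can lose reads.

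Library and age came from the ending of each cell name. Of 55487 identifiers 55141 matched a symbol in GENCODE M21 (GRCm38), and the 346 others held 0.0310% of UMIs. Counts were summed per class and well with Python 3.11.15, numpy 2.4.6, scipy 1.17.1 and pandas 2.3.3 and compared as log2 ratios of CPM after 0.5 UMI was added, for genes with 20 UMIs or more in each well. A gene was called where both wells differed by 2-fold. The functions were tested on simulated data. Intervals are exact binomial, at 95%, and leave out the spread between cells and wells. Doublets were scored with scrublet in scanpy 1.11.5 and kept. Its automatic limit marked 12 of 9953 cells, fewer than the 253 given by an assumed rate of 0.8% per 1000 cells. The 253 cells with the highest scores were left out only as an alternative.

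The members and the 23 gene lists were chosen with earlier results of these data known. Genes named are the 9 of the rule, those of the lists, and the 10 highest and 10 lowest outside the lists by the well nearer to 0, together with the genes of the tagged proteins, chosen after the data were seen. The droplets planned as a thymocyte reference, with no Psmb11, Prss16 or Epcam UMI, numbered 0, and the 25 Epcam-poor droplets, the split at 5 genes and the comparison with cells of 0 to 2 genes were also chosen after the data were seen. With 1 pool per age no p-value was computed. Depth was 25654110 and 31917364 UMIs in the 1-week libraries.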

Additional observations from a re-analysis of the deposited data

Results flagged for a closer look

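On 4 tags the difference between members and cells with none of the 9 genes had opposite signs at the 2 ages in every well, which was not tested. CD274 was higher on members by 0.92 at 1 week (0.88 and 0.97 per well) and differed by -0.98 at 16 weeks (-1.87 and -0.10). CD270 differed by 0.68 and -0.36, CD54 by 0.14 and -0.92, and CD86 by 0.03 and -1.23. The 16-week values rest on 6 and 16 members and on 6 and 24 comparison cells per well, and age and pool cannot be told apart. Groups of 2 wells were too small to look for single wells that stand apart.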

How the results depend on the processing

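The share of members moved with the number of genes asked for, to 64.9% for 2 genes, 20.5% for 4 and 16.3% for 5, and to 17.7% after thinning to 12000 UMIs. The ratio of median depth moved by less than the spread between wells in its 6 alternatives, at 1.24 to 1.56. Genes higher and lower numbered 151 and 35 after thinning, 102 and 18 for cells of 12000 to 30000 UMIs, 540 and 801 without the filter on low counts, and 94 and 25 without cycling cells. Cycling cells were set by a limit of 3 UMIs of the cell cycle list. Without them 48 and 26 members and 17 and 15 comparison cells per well remained. Depth and cycling were not separated in this setting. Lower genes numbered 143 for members of 5 or more genes and 43 against cells of 0 to 2 genes. With 1 well left out, where 1 well alone decides, 841 to 946 genes were higher and 343 to 511 lower. The median log2 ratio of the T cell genes outside the rule was 3.80 after thinning, 4.24 for cells of 12000 to 30000 UMIs, 3.17 and 4.69 for members of at least 2 and 4 genes, 5.07 for those of 5 or more, and 3.64 without cycling cells. That of the cTEC list was -0.03 for cells of 12000 to 30000 UMIs, 0.18, 0.27 and 0.15 for at least 2 genes, at least 4 genes and without cycling cells, and 0.11 against cells of 0 to 2 genes. The list of selected thymocytes had a median of -0.21 for cells of 12000 to 30000 UMIs, where 5495 genes passed the filter, and 0.17 against cells of 0 to 2 genes. The cause was not tested. With 1 well left out the T cell median was 3.69 to 3.87 and the cTEC median 0.22 to 0.28. By the centred log ratio 7 tags were higher and 17 lower (Ly6D, which had no counts, among them), and 6 were lower for cells of 12000 to 30000 UMIs. The alternatives with at least 5 genes and with cells of 0 to 2 genes were chosen after seeing the data. Without cycling cells no gene of the cell cycle list passed the filter. Each ratio and tag difference was taken within a well, and no paired test was made.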
